A study of Canis lupus familiaris with 8 samples.

Results

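CCL24 and RARRES2 encode secreted proteins that attract leukocytes, and their mRNA was followed here in the MDCK I line of epithelial cells from dog kidney at 300 and 500 mOsm and under siRNA against Nfat5. They were the 2 genes of 32704 in the count table whose identifiers the study's supplementary gene table pairs with these symbols. Both were chosen by measured values of these same libraries, namely their rise with hyperosmolality and their fall with each of the Nfat5 siRNAs, so the values of those 3 comparisons are given as a description without a test.

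CCL24, also called eotaxin-2, is a CC chemokine that acts through the receptor CCR3 and is best known for attracting eosinophils. RARRES2, or chemerin, is made as an inactive precursor, becomes active when proteases trim its C-terminus, and attracts macrophages, dendritic cells and natural killer cells through the receptor CMKLR1. RARRES2 was first found as a retinoid-responsive gene and also acts as an adipokine. NFAT5 is the transcription factor that raises osmoprotective genes, such as carriers of organic osmolytes, when the tonicity around a cell increases, a condition that the renal medulla meets routinely.

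The 8 libraries formed 4 groups of 2. Neg-siRNA (300 mOsm) was kept in normal growth medium. Both groups with siRNA against Nfat5, named Nfat5-1-siRNA and Nfat5-2-siRNA (500 mOsm), and their control, Neg-siRNA (500 mOsm), spent the last 24 h in medium to which raffinose had been added to raise the osmolality by 200 mOsm. Every group was transfected with siRNA at 100 nM. The control siRNA, Neg-siRNA, was directed against Slc22a6, which according to the labels MDCK I cells do not express, and the other groups received different constructs against Nfat5. In each group the first replicate was of passage 15 and replicate 2 of passage 17, all from 1 cell line, so that the spread between replicates is a spread between passages. No untransfected cells, no Nfat5 siRNA at 300 mOsm and no osmolyte other than raffinose were among the libraries, and the readout was mRNA, not secreted protein. The total count per library ranged from 34564103 to 46043788.

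The symbols limited 2 checks. None of the 30 epithelial, leukocyte and other cell type markers looked for could be paired with an identifier, so the labelled cell type was not checked against markers, and RNA from other cells was not tested. NFAT5 itself was not paired either. ENSCAFG00000020254, the gene beside NQO1, where RefSeq places NFAT5, had 85.9 and 78.5 CPM (counts scaled to the library total with TMM factors) in Neg-siRNA (500 mOsm), 104 and 88.1 in the libraries labelled Nfat5-1-siRNA and 72.2 and 73.5 in those labelled Nfat5-2-siRNA. Its differences from the control, 0.22 and −0.17 on the log2 scale, were not called (adjusted p = 1 for each, edgeR). NFAT5 protein, which an siRNA can lower without a matching change of the mRNA, was not among the values analysed here, so these mRNA levels do not check the labels and the siRNA groups are named by them. In bulk RNA, fewer expressing cells and less RNA per cell cannot be told apart.

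CCL24 (ENSCAFG00000013396) occupies 7167263 to 7179455 of chromosome 6 (CanFam 3.1, reverse strand), where the annotation gives it 4 exons with 431 exonic bases in a span of 12193 bases. The exon at the highest coordinates, the first in the direction of transcription, has 42 bases and lies apart from the other 3. No other annotated gene overlaps it. RARRES2 (ENSCAFG00000004555) occupies 14671657 to 14673825 of chromosome 16, also on the reverse strand, with 4 exons, 492 exonic bases and a span of 2169 bases. Its exons overlap no other exon, but it lies inside the span of 1 gene on the opposite strand, and reads were counted without regard to strand.

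CCL24 was close to silent at 300 mOsm and among the abundant mRNAs at 500 mOsm. In Neg-siRNA (300 mOsm) its counts were 15 and 25, or 0.337 and 0.740 CPM. In Neg-siRNA (500 mOsm) they were 14267 and 15573, or 387 and 390 CPM. The libraries labelled Nfat5-1-siRNA had 4907 and 2152 counts, or 105 and 45.8 CPM, and those labelled Nfat5-2-siRNA had 4729 and 2851 counts, or 113 and 67.5 CPM. Both hyperosmotic controls lay above every siRNA library, and every siRNA library lay far above both isosmotic ones. The group means ± SD (n = 2) were 0.539 ± 0.285, 388 ± 2.01, 75.6 ± 42.2 and 90.0 ± 31.8 CPM in the order of the groups above. The ranges of the siRNA groups overlapped each other.

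RARRES2 started from a similar low level and rose less. Its isosmotic counts were 45 and 55, or 1.01 and 1.63 CPM, and those of Neg-siRNA (500 mOsm) were 582 and 1667, or 15.8 and 41.7 CPM. With Nfat5-1-siRNA the counts were 64 and 101, or 1.37 and 2.15 CPM, and with Nfat5-2-siRNA they were 71 and 137, or 1.69 and 3.25 CPM. The hyperosmotic controls stood apart from all other libraries. The range of Nfat5-1-siRNA overlapped those of Neg-siRNA (300 mOsm) and of Nfat5-2-siRNA, whereas the latter lay just above the isosmotic range. The group means ± SD (n = 2) were 1.32 ± 0.435, 28.8 ± 18.3, 1.76 ± 0.548 and 2.47 ± 1.1 CPM.

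**Figure D1:**
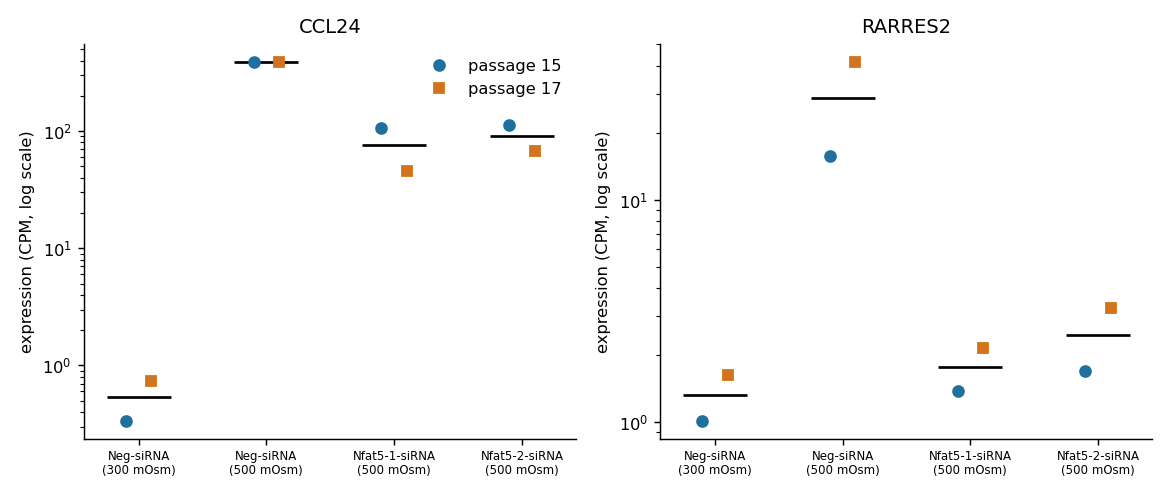
Expression of CCL24 and RARRES2 in CPM (log scale, each panel with its own range) in the 8 libraries, with passage 15 as circles, passage 17 as squares and the mean of the 2 libraries as a line. CCL24 in the siRNA libraries stays between 45.8 and 113 CPM, far above 300 mOsm, while RARRES2 in the siRNA libraries lies between 1.37 and 3.25 CPM, near its values of 1.01 and 1.63 CPM at 300 mOsm.

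Per length, the abundance of the genes can be compared as far as their annotated exonic lengths, 431 and 492 bases, are complete. Whether they hold the whole transcripts was not tested, and the ratios and ranks below depend on them. On the scale of CPM per 1000 exonic bases (RPKM), CCL24 had group means of 1.25, 901, 175 and 209, and RARRES2 had 2.68, 58.5, 3.58 and 5.01. RARRES2 was thus the more abundant of the pair at 300 mOsm, where CCL24 had 0.381 and 0.519 times its level, and CCL24 the more abundant at 500 mOsm, where the ratio was 28.0 and 10.7. The ratio was 87.5 and 24.3 with Nfat5-1-siRNA and 76.0 and 23.8 with Nfat5-2-siRNA. Among the 19835 tested genes, those with a summed count of at least 5, CCL24 ranked 12347 and 11225 by RPKM in the isosmotic libraries and 82 and 94 in the hyperosmotic controls. RARRES2 moved from ranks 10933 and 10081 to 3421 and 1324.

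With hyperosmolality the fitted log2 fold change of CCL24 was 9.54 (SE 0.50), a 721-fold ratio of the group means, which was 1147-fold within passage 15 and 527-fold within passage 17. These folds rest on the 15 and 25 isosmotic counts. For RARRES2 the log2 fold change was 4.46 (SE 0.48), or 21.8-fold, with 15.6-fold in passage 15 and 25.6-fold in passage 17. Among all tested genes, ordered from the largest rise, CCL24 ranked 27 and RARRES2 848, and 11.3% of the tested genes were called higher and 9.23% lower (edgeR quasi-likelihood test, Benjamini-Yekutieli adjusted p under 0.05). These ranks belong to the comparison that chose the genes and support nothing further.

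With the siRNAs the order of the pair was the opposite one. CCL24 had a log2 fold change of −2.36 (SE 0.34) with the first construct and of −2.11 (SE 0.33) with the other, or 5.14-fold and 4.31-fold lower means. RARRES2 had −4.03 (SE 0.46) and −3.54 (SE 0.45), or 16.3-fold and 11.7-fold lower means. Ordered from the largest fall, RARRES2 ranked 499 and 450 and CCL24 1307 and 1109. Of all tested genes, 4.53% were called lower and 3.4% higher with Nfat5-1-siRNA, and 7.38% lower and 4.67% higher with Nfat5-2-siRNA. Both siRNA comparisons, and the one with hyperosmolality, share the Neg-siRNA (500 mOsm) libraries.

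What remained under the siRNAs differed between the genes in size. CCL24 kept 27.2% and 11.7% of the hyperosmotic control level of the same passage with Nfat5-1-siRNA and 29.1% and 17.3% with Nfat5-2-siRNA, in passages 15 and 17. RARRES2 kept 8.71% and 5.15%, then 10.7% and 7.78%. Set against the isosmotic controls, CCL24 had means 140-fold and 167-fold higher with the respective siRNAs, whereas RARRES2 was at 1.33 and 1.87 times its isosmotic mean. Within passages 15 and 17 the folds of CCL24 were 312 and 61.9 with Nfat5-1-siRNA and 334 and 91.3 with Nfat5-2-siRNA, all of which rest on the 15 and 25 isosmotic counts. On the log2 scale the siRNAs undid 24.7% and 22.1% of the rise of CCL24 and 90.3% and 79.4% of that of RARRES2. No library with siRNA against Nfat5 at 300 mOsm was analysed here, so the share of this remainder that needs raffinose cannot be told apart from an effect of these siRNAs alone.

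The siRNA constructs could be compared with a test, since that comparison did not choose the genes. CCL24 differed by 0.25 on the log2 scale between Nfat5-2-siRNA and Nfat5-1-siRNA (SE 0.32, 2 SE on either side −0.39 to 0.89, adjusted p = 1, edgeR), and was higher with Nfat5-2-siRNA in both passages. RARRES2 differed by 0.48 (SE 0.45, −0.41 to 1.38, adjusted p = 1) and was likewise higher in both. Over all tested genes 8 were called in this comparison, or 0.0403%, and neither gene was among them. The intervals still hold more than a doubling of RARRES2, so the test does not show that the constructs acted alike. These SE were worked back from the F statistic of the test. DESeq2 gave differences of 0.28 (SE 0.57) for CCL24 and 0.51 (SE 0.44) for RARRES2, so the interval of CCL24 depends on the method. With the passage as a block the differences were 0.29 (−0.00411 to 0.589) and 0.45 (−0.0326 to 0.941), with adjusted p = 1 for both.

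The passages were compared after the values had been seen, and the calls depended on the filter on low counts and on single groups. RARRES2 was higher in passage 17 in 4 of 4 groups, by 1.61-fold in Neg-siRNA (300 mOsm), 2.64-fold in Neg-siRNA (500 mOsm), 1.56-fold with Nfat5-1-siRNA and 1.92-fold with Nfat5-2-siRNA. In a fit with group and passage its log2 difference was 0.98 (SE 0.17, adjusted p = 7.45e-05, edgeR), and 3.29% of the tested genes were called for passage. The call did not hold with edgeR's filterByExpr as the filter on low counts (adjusted p = 0.0908), nor without the Neg-siRNA (500 mOsm) pair, where the difference was 0.74 (adjusted p = 1). CCL24 in passage 17 was at 2.19 times its level in passage 15 in Neg-siRNA (300 mOsm), 1.01 times in Neg-siRNA (500 mOsm), 0.434 times with Nfat5-1-siRNA and 0.600 times with Nfat5-2-siRNA. Its common difference of −0.55 (SE 0.12, adjusted p = 0.00626) did not describe all groups, since 2 of 4 were not lower in passage 17, and was not called with filterByExpr (adjusted p = 1), without the Nfat5-1-siRNA pair (−0.25, adjusted p = 1) or without the Nfat5-2-siRNA pair (−0.47, adjusted p = 0.992).

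The rule did not use the position of the genes, so the 5 nearest tested genes on each side were described. Around CCL24, 4 of 10 neighbours rose with hyperosmolality and 1 fell, against the 11.3% and 9.23% of all genes given above. Their median log2 fold change was 0.54, and that of all tested genes 0.00404. Around RARRES2, 1 of 10 rose and 1 fell, with a median of 0.28. Neighbours are few and were not a random draw, so these shares are counts and not a test.

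The nearest neighbour of CCL24, ENSCAFG00000032573, had a rise of much the same size. It lies on the same strand at 7150741 to 7154682, which leaves a gap of 12.581 kb, and has 1069 exonic bases. It had 4 and 14 counts in the isosmotic libraries, 8105 and 5691 in the hyperosmotic controls, 5144 and 1259 with Nfat5-1-siRNA, and 7106 and 1452 with Nfat5-2-siRNA. In CPM this was 0.0900 and 0.414, 220 and 142, 110 and 26.8, and 169 and 34.4. The hyperosmotic controls again stood far above the isosmotic ones, but 1 siRNA library, replicate 1 of Nfat5-2-siRNA, lay within their range. Its log2 fold change with hyperosmolality was 9.58 (SE 1.02, adjusted p = 0.000109, edgeR), and it stayed called without each library in turn, with log2 fold changes from 8.71 to 10.93.

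The level of ENSCAFG00000032573 left under the siRNAs differed between the passages. It kept 50.3% of the hyperosmotic control level with Nfat5-1-siRNA and 76.9% with Nfat5-2-siRNA in passage 15, but 18.8% and 24.1% in passage 17. The log2 fold changes were −1.40 (SE 0.63) and −0.83 (SE 0.62), with adjusted p = 1 for each. With the passage as a block they were −1.75 and −1.23 and both passed the threshold (adjusted p = 4.65e-14 and 3.07e-08). With the block and filterByExpr together the fall with Nfat5-1-siRNA passed (adjusted p = 0.0272) and that with Nfat5-2-siRNA did not (adjusted p = 0.160). The sources used here do not pair this identifier with a symbol. In the RefSeq annotation of another dog assembly, UU_Cfam_GSD_1.0, the only protein-coding gene between HIP1 and CCL24 is CCL26, another chemokine of the eotaxin group that acts on CCR3. Whether the identifier is that gene was not tested.

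Next on either side lay HIP1, a clathrin-binding protein of endocytosis, and RHBDD2, a membrane protein of the rhomboid family. Both are in the study's gene table and were thus selected on these libraries. HIP1 (ENSCAFG00000013367, 6957694 to 7009916) had means of 53.9 CPM at 300 mOsm, 253 in the hyperosmotic control, 91.1 with Nfat5-1-siRNA and 107 with Nfat5-2-siRNA. Its log2 fold changes were 2.23, −1.47 and −1.24 (adjusted p = 1.28e-05, 0.0014 and 0.00263, edgeR). RHBDD2 (ENSCAFG00000013405, 7218730 to 7231106) had means of 49.6, 198, 89.4 and 96.8 CPM and log2 fold changes of 1.99, −1.14 and −1.03 (adjusted p = 4.68e-05, 0.0100 and 0.0135). Both rises held without each library. The fall of HIP1 with Nfat5-1-siRNA was lost without replicate 2 of that group (adjusted p = 0.0704), and that with Nfat5-2-siRNA without replicate 1 of Neg-siRNA (500 mOsm) (0.0545) or replicate 2 of Nfat5-2-siRNA (0.0627). The fall of RHBDD2 with Nfat5-1-siRNA was lost without either Neg-siRNA (500 mOsm) library (adjusted p = 0.176 and 0.0582) or either library of Nfat5-1-siRNA (0.0502 and 0.368). Its fall with Nfat5-2-siRNA was lost without either Neg-siRNA (500 mOsm) library (0.333 and 0.0761) or replicate 2 of Nfat5-2-siRNA (0.209).

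HIP1 and RHBDD2 kept more of the hyperosmotic level than CCL24 did. HIP1 kept between 30.01% and 44.7% in the 4 siRNA libraries and RHBDD2 between 43.7% and 51.15%, each set against its own passage. The amplitude of the rise also differed, since CCL24 and ENSCAFG00000032573 had isosmotic means of 0.539 and 0.252 CPM, and HIP1 and RHBDD2 of 53.9 and 49.6 CPM.

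**Figure D2:**
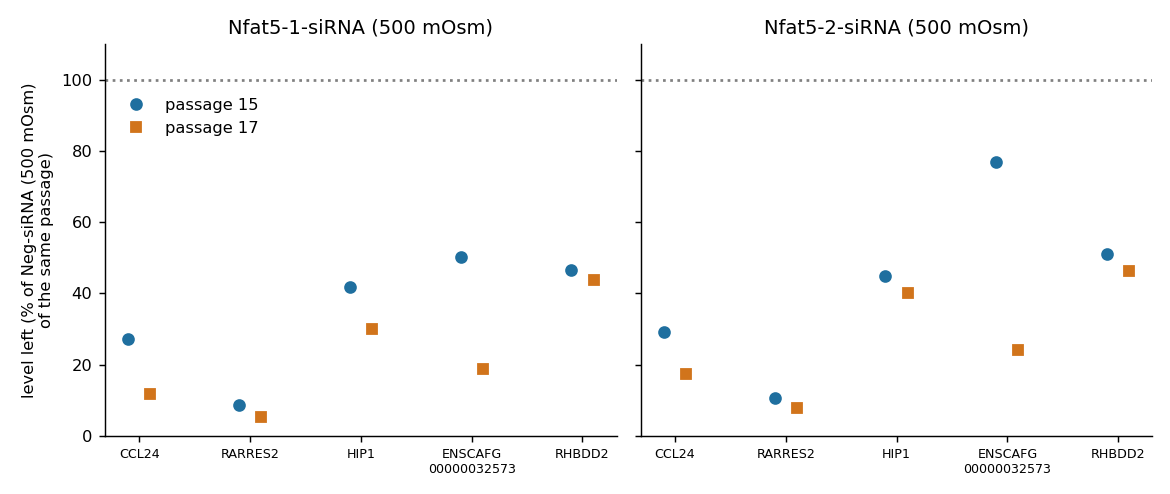
Level left under each siRNA, as a percent of Neg-siRNA (500 mOsm) of the same passage (vertical axis), for CCL24, RARRES2 and the 3 neighbours of CCL24 described, with passage 15 as circles, passage 17 as squares and 100% as a dotted line. All points lie below 100%, RARRES2 lowest at 5.15% to 10.7%, and ENSCAFG00000032573 has the widest gap between passages, 24.1% and 76.9% with Nfat5-2-siRNA.

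Farther out the neighbourhood of CCL24 was mixed. ENSCAFG00000013467, the next gene beyond RHBDD2, rose from 51.9 to 158 CPM (log2 fold change 1.61) and had 134 and 125 CPM with the siRNAs, changes that were not called. ENSCAFG00000013496 fell from 41.4 to 12.1 CPM (−1.77), the opposite direction to CCL24. It had 6.57 CPM with Nfat5-1-siRNA (−0.88, adjusted p = 0.0443, edgeR) and 8.69 CPM with Nfat5-2-siRNA (−0.48, adjusted p = 0.713). The call with Nfat5-1-siRNA was lost without each of the 8 libraries in turn (adjusted p from 0.0533 to 0.729) and held with the block (0.000202). With HIP1, RHBDD2 and this gene, 3 of the 10 CCL24 neighbours were called lower with Nfat5-1-siRNA and 2 with Nfat5-2-siRNA, against 4.53% and 7.38% of all genes, and none was called higher by edgeR. With the block, 4 and 3 of them were called lower, where 11.9% and 15.3% of all genes were.

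Around RARRES2 no neighbour was called both higher with hyperosmolality and lower with an siRNA. The second gene at higher coordinates had the same directions as RARRES2 at a much smaller size. Its means were 12.9, 15.9, 14.3 and 15.3 CPM in the order of the groups, and its changes were not called. ENSCAFG00000004506 fell from 11.8 to 2.01 CPM with hyperosmolality (−2.55, adjusted p = 0.000847, edgeR) and stayed at 2.03 and 1.98 CPM with the siRNAs. The gene on the opposite strand whose span contains RARRES2 rose from 4.11 to 9.64 CPM and had 9.63 and 9.73 CPM with the siRNAs. RARRES2 fell by more than 9-fold in each passage with either siRNA, whereas the changes of this overlapping gene were −0.00152 and 0.0141 on the log2 scale and were not called. The nearest gene at higher coordinates had 46.6 CPM in the hyperosmotic control, 80.0 with Nfat5-1-siRNA and 82.1 with Nfat5-2-siRNA, the opposite direction to RARRES2, and without the block the rise was called with Nfat5-2-siRNA (adjusted p = 0.0335) and not with Nfat5-1-siRNA (0.0594). With the passage as a block it was called with both, Nfat5-1-siRNA (adjusted p = 1.67e-05) and Nfat5-2-siRNA (4.61e-06), and likewise with the block and filterByExpr together (0.0176 and 0.00882). The difference between the siRNAs was not called (adjusted p = 1), and the call without the block was lost without either Neg-siRNA (500 mOsm) library, either Nfat5-1-siRNA library or replicate 2 of Nfat5-2-siRNA. No RARRES2 neighbour was called lower with either siRNA. At an unadjusted p under 0.05, 8 of the 20 neighbours of both genes passed with Nfat5-1-siRNA and 6 with Nfat5-2-siRNA, where 31.9% and 36.7% of all genes did, and DESeq2 called 4 and 3, where it called 13.5% and 17.7% of all genes. These shares are near those of all genes. With the block, 2 RARRES2 neighbours were called higher with each siRNA, where 9.61% and 10.7% of all genes were. With hyperosmolality the block called 5 of the 20 neighbours higher and 3 lower, where 17.3% and 15.7% of all genes were.

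**Figure D3:**
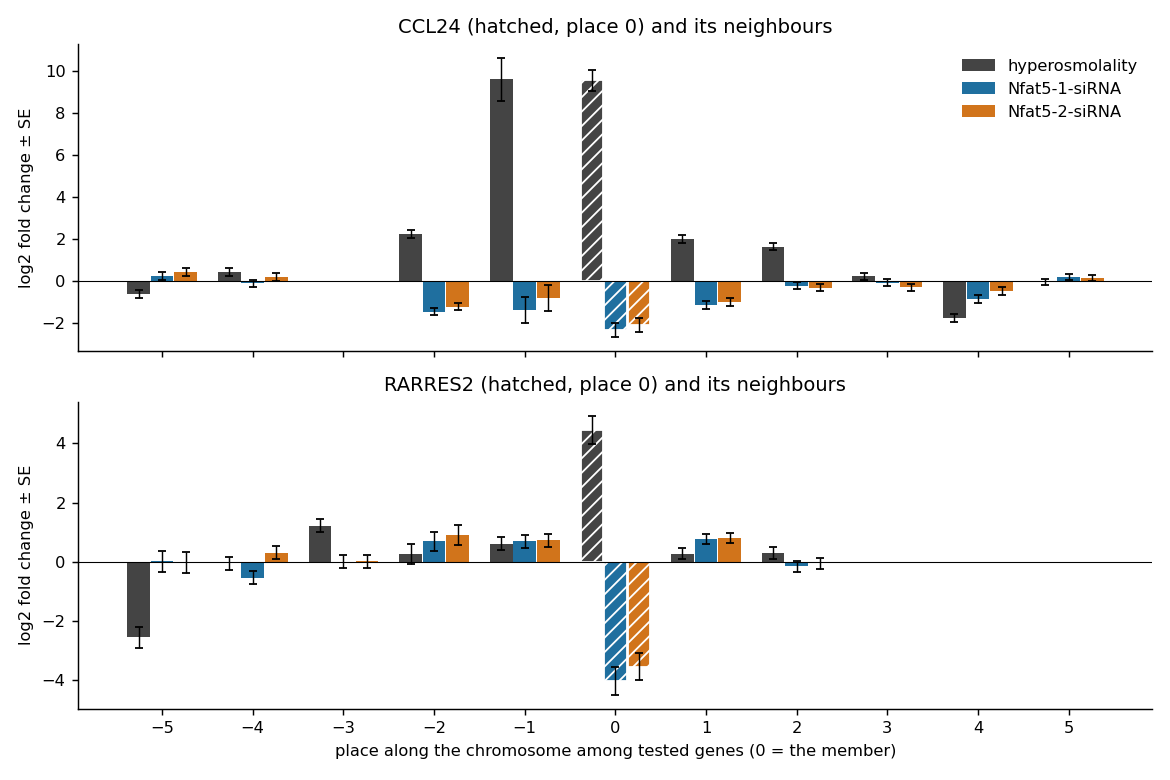
Log2 fold change with its SE for CCL24 and RARRES2 (hatched, place 0) and their 5 nearest tested genes on each side (places −5 to 5 in chromosome order, not to distance), in the 3 comparisons named in the legend. Genes under 1 CPM in every group are left blank (place −3 of CCL24, places 3 to 5 of RARRES2). The genes at places −2 to 1 around CCL24 all rise with hyperosmolality and have lower means with both siRNAs. No neighbour of RARRES2 was called lower with either siRNA. The gene at place 2 of RARRES2 has the same directions at a small size (0.30, −0.15 and −0.06), and was not called.

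The pathways around the pair could be read only in part, because symbols were taken only from the study's gene table, whose genes were selected on these libraries. Of 183 symbols looked for, 15 were paired, CCL24 and RARRES2 included. None of the 26 chemokine and chemerin receptors, none of the 16 genes of type 2 cytokine signalling and no other chemokine was among them, so CCR3 and CMKLR1 were not analysed here. Of the 13 other paired genes, 10 rose with hyperosmolality and 3 fell, where 11.3% and 9.23% of all tested genes did. With Nfat5-1-siRNA 7 were called lower and 3 higher (4.53% and 3.4% of all genes), and with Nfat5-2-siRNA 8 lower and 2 higher (7.38% and 4.67%). Since the study chose all of them for changes in these libraries, the counts are not independent evidence of a direction. Leaving out 1 library could lower these counts. With hyperosmolality 1 in place of 3 fell without replicate 2 of Neg-siRNA (300 mOsm) or replicate 1 of Neg-siRNA (500 mOsm). With Nfat5-1-siRNA, 1 and 3 were called lower without replicates 2 and 1 of that group, and 2 without either Neg-siRNA (500 mOsm) library. With Nfat5-2-siRNA, 3 and 5 were called lower without replicates 2 and 1 of that group, and likewise 3 and 5 without replicates 1 and 2 of Neg-siRNA (500 mOsm). With the block, 10 were called lower and 3 higher with each siRNA. Of all genes, 11.9% were then called lower and 9.61% higher with Nfat5-1-siRNA, and 15.3% and 10.7% with Nfat5-2-siRNA. With the block and filterByExpr together, 10 were again called lower with each siRNA, where 11.1% and 15.6% of all genes were. The count higher was then 3 with Nfat5-1-siRNA and 2 with Nfat5-2-siRNA, where 8.27% and 10.4% of all genes were. DESeq2 called all 13 with each siRNA (13.5% and 17.7% of all genes), but the study selected its table with DESeq2 in these comparisons, so that count was set by the choice. The osmolyte genes SLC6A6, SLC6A12, SLC5A3 and AKR1B1 were among the 10 that rose, and edgeR called all 4 lower with Nfat5-2-siRNA and all but SLC5A3 (adjusted p = 0.0716) with Nfat5-1-siRNA.

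Of the 24 symbols listed for chemerin-processing enzymes and inhibitors, 1 was paired, carboxypeptidase M. This enzyme removes basic residues from the C-terminus of peptides at the cell surface, and whether it acts on chemerin was not tested. Its mean rose from 29.8 to 90.1 CPM with hyperosmolality (log2 fold change 1.60, SE 0.18) and was 43.7 CPM with Nfat5-1-siRNA (−1.04, SE 0.18, adjusted p = 0.0132, edgeR) and 54.3 CPM with Nfat5-2-siRNA (−0.73, SE 0.18, adjusted p = 0.0832). Its mRNA thus had the order of groups that RARRES2 had, with a much smaller range.

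Among the retinoid genes, RARRES1, another gene first found by its response to retinoids, rose from 22.7 to 37.0 CPM and was at 19.3 and 17.7 CPM with the siRNAs. RDH11, a retinol dehydrogenase, rose from 68.9 to 105 CPM and was at 53.6 and 46.6 CPM. The siRNA means of both lay below their isosmotic means, and those of RARRES2 lay above its own. RARG, a retinoic acid receptor, had the reverse course, 28.8 CPM at 300 mOsm, 16.4 at 500 mOsm, and 33.2 and 36.8 with the siRNAs. DHRS3, which reduces retinaldehyde, fell from 23.0 to 2.35 CPM (−3.29, SE 0.25) and was at 10.6 CPM with Nfat5-1-siRNA (2.18, SE 0.24, adjusted p = 0.000726, edgeR) and 4.44 CPM with Nfat5-2-siRNA (0.92, SE 0.24, adjusted p = 0.127). Its difference between the siRNAs, −1.26, was not called by edgeR (adjusted p = 0.208). It was called with the passage as a block (adjusted p = 1.51e-05, edgeR) and by DESeq2 (adjusted p = 0.0021). The p-values of the block depend on the filter on low counts, and this difference is not given here with filterByExpr.

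Among other secreted factors, VEGFA, the endothelial growth factor, rose from 318 to 1386 CPM and was at 830 and 756 CPM with the siRNAs. Its fall was called with Nfat5-2-siRNA (adjusted p = 0.0402, edgeR) and not with Nfat5-1-siRNA (0.137). With the passage as a block it was called with both (3.05e-07 and 1.86e-05). TGFB1 rose from 19.5 to 44.1 CPM and was at 26.6 and 27.0 CPM with the siRNAs. Without the block edgeR did not call these falls (adjusted p = 0.0915 and 0.0832), and with the passage as a block it did (0.00036 and 0.000608). DESeq2, by which the table was selected, also called both (adjusted p = 0.0194 and 0.0331). The falls of VEGFA and TGFB1 with each siRNA were also called with the block and filterByExpr together. CSF1, which drives the growth of macrophages, rose from 37.5 to 84.0 CPM and rose further, to 327 and 240 CPM, with the siRNAs. TNFSF10, the death ligand TRAIL, fell from 37.0 to 20.1 CPM and again to 9.79 and 10.2 CPM. CCL24, RARRES2, VEGFA, TGFB1, CSF1 and TNFSF10 thus shared no single pattern across the 4 groups.

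**Figure D4:**
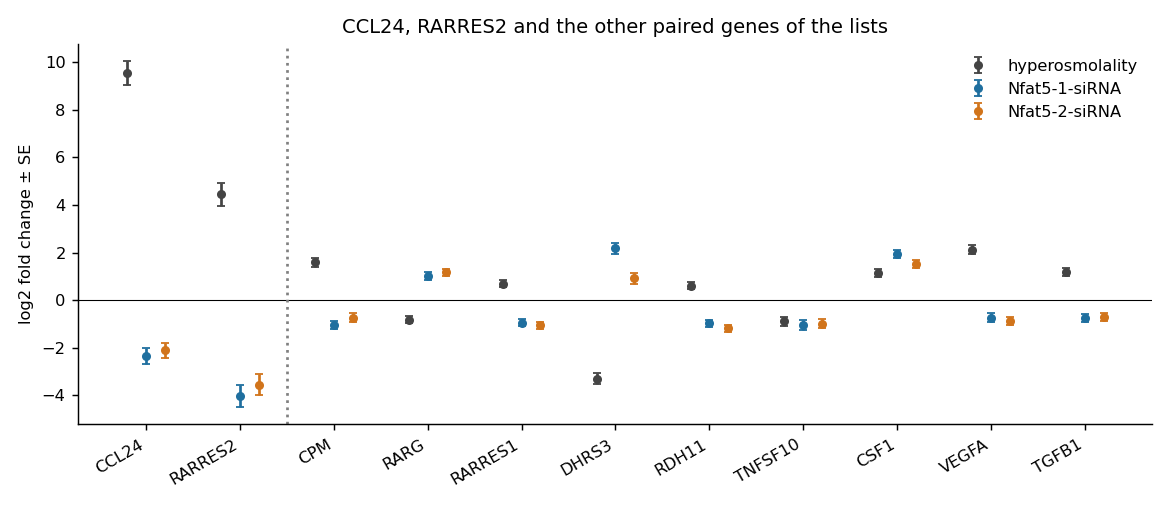
Log2 fold change with its SE (vertical axis) in the 3 comparisons for CCL24, RARRES2 and, right of the dotted line, 9 other paired genes. The 9 come from the lists for chemerin processing, retinoid metabolism and secreted factors, and CPM on the axis is the symbol of carboxypeptidase M. RARG and DHRS3 run opposite to RARRES2 in all 3 comparisons, and CSF1 rises in all 3.

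Over the 8 libraries, the Pearson r of the log2 CPM of CCL24 and RARRES2 was 0.65. Genes like either one were looked for among the 8962 with at least 10 CPM in Neg-siRNA (500 mOsm), the group in which both are high. Genes near 0 at 300 mOsm, such as PRSS35 (0 CPM) and ADORA2A (0.186 CPM), thus entered through that group alone. The genes of highest r named below hold only among these candidates, and no conclusion is drawn from their order. These values are a description, since all points share the same libraries and the large step with hyperosmolality. Among the candidates with a symbol, r with CCL24 was highest for ADORA2A, the adenosine A2a receptor (r = 0.998), and SLC6A12, the betaine carrier (0.997). PRSS35, NR1H4, the bile acid receptor, and NPTX2, a pentraxin, followed (each 0.996). For ADORA2A and PRSS35 the filter on the group where CCL24 is high favoured such an r, so it supports nothing further. ENSCAFG00000032573 had 0.986.

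Among the same candidates, the 5 with a symbol and the highest r with RARRES2 began with MGAT3, which adds a branch to N-glycans (r = 0.994). EDIL3, a secreted integrin ligand (0.978), UBAC2 (0.966), CIB1, a calcium-binding protein (0.963), and C17orf58 (0.961) followed. C17orf58 had 7.29 CPM at 300 mOsm and 9.01 and 9.38 CPM with the siRNAs. It thus entered through Neg-siRNA (500 mOsm) alone, and no conclusion is drawn from the order. MGAT3 had means of 200.009, 398, 224 and 225 CPM in the 4 groups and EDIL3 had 8.55, 33.9, 10.1 and 9.67. SLC6A12 had 3.93, 2003, 599 and 530 CPM. All of these genes were picked for their r over these same libraries, so that their means follow those of CCL24 or RARRES2 was set by the choice.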

How the data were processed

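MDCK I libraries (NEBNext Ultra II, paired-end) were mapped by the authors with HISAT2 2.0.5 to CanFam 3.1, and the authors deposited raw read counts per gene (featureCounts 1.5.1, Ensembl 92 exons, unstranded). The header command has no pair option, so mates may have been counted separately. The exon lengths deposited beside the counts gave RPKM. No column of values was left unused (0). Gene symbols came from the study's supplementary gene table.

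Genes whose counts summed to 5 or more were tested with edgeR 4.0.16 (TMM, quasi-likelihood, 4 groups, two-sided, Benjamini-Yekutieli over 19835 genes, threshold 0.05). The SE of edgeR fits was the absolute log2 fold change divided by the square root of its F statistic. CPM used TMM factors (0.883 to 1.12). Likeness used log2 CPM with a prior count of 2. Named genes were CCL24, RARRES2, the paired genes of fixed lists, the nearest tested genes and, per gene, the 5 genes with a symbol of highest r. At most 2 unnamed neighbours were printed by identifier per direction, besides the one beside NQO1. The genes and lists were chosen with earlier results of these data known. The passages in the labels pair the replicates, and the passage differences of the groups correlated with r from 0.123 to 0.465. On simulated data for Nfat5-2-siRNA against Nfat5-1-siRNA, edgeR recovered 200 of 200 genes changed 4-fold among 19486, with or without the block. It called 0 unchanged genes, while DESeq2 recovered 197 and called 4 unchanged genes. The simulation gave all genes the same dispersion, changed only genes with high counts and had no passage effect. It thus does not give the power for differences below 4-fold or for genes that vary between passages. Alternatives were DESeq2 1.42.0, DESeq2 size factors, other filters and adjustments, the block, the compared libraries alone and each library left out. The passage test and the block with filterByExpr were added after the data were seen. Depth limits CCL24 at 300 mOsm, and the 2 replicates limit the rest. Sequences were not printed.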

Additional observations from a re-analysis of the deposited data

How the results depend on the processing

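No alternative changed the direction of CCL24 or RARRES2 with hyperosmolality or with either siRNA. Without each library in turn the log2 fold changes with hyperosmolality ranged from 8.98 to 10.16 for CCL24 (lowest without replicate 1 and highest without replicate 2 of Neg-siRNA (300 mOsm)) and from 3.54 to 4.94 for RARRES2 (lowest without replicate 2 of Neg-siRNA (500 mOsm)). For Nfat5-1-siRNA the range was −3.08 to −1.88 for CCL24 (lowest without its replicate 1) and −4.50 to −3.11 for RARRES2. For Nfat5-2-siRNA it was −2.52 to −1.79 (lowest without its replicate 1) and −4.09 to −2.58. The smallest falls of RARRES2 were those without replicate 2 of Neg-siRNA (500 mOsm). The difference between the siRNAs ranged from −0.23 to 0.98 for CCL24 and from −0.061 to 0.88 for RARRES2 without each library. In this fit, leaving out 1 siRNA library sets 1 passage of that siRNA against both passages of the other. The difference was reversed for CCL24 without Nfat5-1-siRNA replicate 2 (−0.23) or Nfat5-2-siRNA replicate 1 (−0.16), and for RARRES2 without Nfat5-2-siRNA replicate 2 (−0.061). Within passages 15 and 17 it was positive, 0.09 and 0.56 for CCL24 and 0.30 and 0.59 for RARRES2, and the replicate block left it uncalled, at 0.29 and 0.45.

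Of the 20 neighbours, 0 were called higher with Nfat5-1-siRNA by edgeR. This count was 1 with DESeq2 size factors, no filter, DESeq2, the compared libraries alone, or the block with filterByExpr, and 2 with the Benjamini-Hochberg adjustment or the replicate block. With Nfat5-2-siRNA the count higher, 1, became 2 with the Benjamini-Hochberg adjustment or the replicate block and 0 with the compared libraries alone, which also called 1 lower in place of 2. Without each library the neighbours called ranged from 4 to 5 higher and 2 lower with hyperosmolality, from 0 to 1 higher and 0 to 2 lower with Nfat5-1-siRNA, and from 0 to 1 higher and 0 to 2 lower with Nfat5-2-siRNA. The list genes ranged from 8 to 10 higher and 1 to 3 lower with hyperosmolality, from 2 to 3 higher and 1 to 7 lower with Nfat5-1-siRNA, and 2 higher and 3 to 8 lower with Nfat5-2-siRNA. Over the same fits, 7.10% to 11.7% of all tested genes were called higher and 5.05% to 9.77% lower with hyperosmolality, 0.342% to 4.26% and 0.470% to 4.70% with Nfat5-1-siRNA, and 2.08% to 6.01% and 2.82% to 6.66% with Nfat5-2-siRNA. The fewest lower calls with Nfat5-1-siRNA, 1 list gene and 0.470% of all genes, were both without its replicate 2. The cause was not tested. The block fit had 107.7 prior degrees of freedom, against 8.96 with filterByExpr, so its p-values depend on the filter. The passage calls lost under other settings were 0.98 with filterByExpr and 0.74 without the Neg-siRNA (500 mOsm) pair for RARRES2, and −0.55 with filterByExpr, −0.25 without the Nfat5-1-siRNA pair and −0.47 without the Nfat5-2-siRNA pair for CCL24. Depth limits the folds of genes with few counts at 300 mOsm.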
